A study of Mus musculus with 288 samples.

Results

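Mitochondrially encoded subunits are the proteins of oxidative phosphorylation whose genes lie on the mitochondrial chromosome. The 10 subunits described here are mt-Nd1, mt-Nd2, mt-Nd4, mt-Nd5 and mt-Nd6 of complex I, mt-Cytb of complex III, mt-Co1, mt-Co2 and mt-Co3 of complex IV, and mt-Atp6 of complex V. The subunits mt-Nd3, mt-Nd4l and mt-Atp8 of the same chromosome are not among the 10. They were chosen by name from the 35904 genes in the deposited tables and not by a cutoff on their values, though earlier results of these data were known. The mice were male wild-type C57BL/6J animals, 8 weeks of age, and RNA came from heart, kidney, muscle, cerebellum, liver and lung. They spent 7 days either in room air with 21% oxygen (normoxia) or in intermittent hypoxia (IH), in which oxygen swung between 21% and 8% during the light phase, when mice rest. All of them were then kept in constant darkness and normoxia, so no tissue was taken during hypoxia itself. On the second day of darkness, tissues were taken at 8 time points, 3 hours apart, from 3 mice per treatment, which gave 24 libraries per tissue and treatment. Values are in TPM, a unit per transcript length in which the sum of a library is fixed. Libraries of several tissues may come from the same mouse, which the labels do not give.

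The respiratory chain passes electrons from NADH and succinate to oxygen, and the proton gradient that complexes I, III and IV build drives ATP synthase, complex V. Each of these complexes joins subunits read from mitochondrial DNA with a larger number read from nuclear DNA, and complex II is nuclear only. Mitochondrial genes are transcribed as long polycistronic RNAs by the polymerase Polrmt, cut at the tRNAs between them, and given short poly(A) tails. Tissues with a high oxidative capacity, such as heart, are known for a high content of mitochondrial transcripts. In bulk tissue, fewer cells of a type and less RNA per cell cannot be told apart.

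On the mitochondrial chromosome of the GRCm38 build, mt-Nd1 runs from 2751 to 3707, mt-Nd2 from 3914 to 4951, mt-Co1 from 5328 to 6872, mt-Co2 from 7013 to 7696, mt-Atp6 from 7927 to 8607, mt-Co3 from 8607 to 9390, mt-Nd4 from 10167 to 11544, mt-Nd5 from 11742 to 13565 and mt-Cytb from 14145 to 15288, all on the plus strand. The exception is mt-Nd6, from 13552 to 14070 on the minus strand, whose end overlaps that of mt-Nd5. Whether reads were counted by strand is not given in the sources used here, so RNA of mt-Nd6 and RNA antisense to it or to mt-Nd5 may not be separated.

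A stretch of nuclear chromosome 1, from 24611535 to 24616197, holds pseudogenes that are at least 99% identical to 5 of the 10 subunits. They are Gm28661 for mt-Co2 (100% identity over 681 bases), Gm10925 for mt-Atp6 (100% over 678), Gm28437 for mt-Co3 (100% over 783), Gm28439 for mt-Nd4 (100% over 876 of its 1378 bases) and Gm29216 for mt-Co1 (99.8% over 483 of its 1545 bases). Of the 654 stretches of 31 bases in mt-Co2, 651 are also found in Gm28661, and 648 of the 651 in mt-Atp6 are also found in Gm10925. mt-Nd1, mt-Nd2, mt-Nd5, mt-Nd6 and mt-Cytb have no such copy. Of these, mt-Nd1 shares 0 stretches of 31 bases with nuclear transcripts. The others share some with less similar ones, 136 of 1008 in mt-Nd2 and 302 of 1794 in mt-Nd5. The numbers are 36 of 489 in mt-Nd6 and 73 of 1114 in mt-Cytb. A stretch of 4 transcripts, the 3' end for mt-Co2 and mt-Atp6, is shown beside the matching stretch of a nuclear pseudogene because the split of values within the first 3 pairs moves with several results, and mt-Cytb is shown as a subunit with no near-identical copy. Capitals mark bases that differ, or that the pseudogene lacks.
mt-Co2: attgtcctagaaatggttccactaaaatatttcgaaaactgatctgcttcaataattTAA
Gm28661: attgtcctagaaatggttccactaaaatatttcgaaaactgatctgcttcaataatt
mt-Atp6: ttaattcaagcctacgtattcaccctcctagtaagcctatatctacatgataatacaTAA
Gm10925: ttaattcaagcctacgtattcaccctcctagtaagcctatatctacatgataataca
mt-Co1: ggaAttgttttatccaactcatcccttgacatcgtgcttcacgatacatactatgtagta
Gm29216: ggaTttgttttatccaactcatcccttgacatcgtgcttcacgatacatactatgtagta
mt-Cytb: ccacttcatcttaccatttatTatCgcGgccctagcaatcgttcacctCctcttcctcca
Gm11410: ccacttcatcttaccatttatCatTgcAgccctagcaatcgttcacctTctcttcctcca
The mt-Co2 stretch lies at MT 7637 to 7696 and that of Gm28661 at chromosome 1, 24614885 to 24614941, minus strand. The mt-Atp6 stretch lies at MT 8548 to 8607 and that of Gm10925 at chromosome 1, 24613974 to 24614030, minus strand. The mt-Co1 stretch lies at MT 6390 to 6449 and that of Gm29216 at chromosome 1, 24616129 to 24616188, minus strand. Over their whole length, the first 2 pairs differ by the final 3 bases alone, whereas mt-Cytb (MT 14687 to 14746) and its closest nuclear relative Gm11410 (chromosome 4, 80004531 to 80004590, plus strand; 92.9% identity in all) differ at 4 of the 60 bases shown.

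Each library summed to between 989211 and 999188 TPM, and the files hold no counts, so the depth is unknown. In every tissue, all 10 markers of that tissue had a mean of at least 1 TPM in both treatments. Libraries that stand apart were 1 IH liver library (replicate 2, 13:30), in which liver markers summed to 1782 TPM against 77679 to 114779 in normoxia and heart markers to 10726 TPM, 1 IH cerebellum library (replicate 3, 1:30) with 431 TPM of cerebellum markers and 12492 TPM of heart markers, and 1 IH lung library (replicate 2, 1:30) with 35782 TPM of lung markers against 137889 to 265812 in normoxia. In normoxia, 1 heart library (replicate 3, 7:30) had the lowest heart markers, 20119 TPM against a median of 37196, and 459 TPM of lymphocyte markers against a median of 4.34, and 1 cerebellum library (replicate 3, 19:30) had 11416 TPM of skeletal muscle markers against a median of 22.4. These 2 libraries also set the lowest share of the 10 subunits in their groups. Heart markers were not confined to 1 cerebellum library. Their sum there was 125 TPM in the lowest library and 1338 at the median in normoxia, and 122 and 787 TPM after IH. The number of genes detected rose in the lung from 22694 to 25455 and fell in the heart from 25124 to 21447 (adjusted p = 3e-05 in both, permutation test within time points). All 10 subunits passed the filter of a mean of 1 TPM in every tissue, and none was at 0 in any library.

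In normoxia, the 10 subunits together held their largest share of TPM in the heart. The share there was 17.0% in the lowest library, 28.5% at the median and 36.4% in the highest, with a mean of 28.7% ± 4.93 (SD, n = 24). The kidney followed with 15.5% ± 2.38 and a range of 10.2% to 19.2%. The muscle held 14.0% ± 1.43, from 10.9% to 17.2%. The cerebellum held 9.17% ± 3.16, from 5.41% to 20.1%, and the liver 8.55% ± 1.00, from 7.01% to 10.4%. The lung was last with 4.68% ± 0.810, from 3.85% to 7.59%. Of the 15 pairs of tissues, 14 differed beyond the spread between libraries (permutation test within time points, adjusted over the 15 pairs). Most of these had an adjusted p of 1.15e-05, from the smallest p that 100000 resamples give. Kidney and muscle differed by 1.45 percentage points (adjusted p = 0.0108, but 0.18 without replicate 1 and 0.444 without replicate 2). Cerebellum and liver were not separated (0.613 percentage points, adjusted p = 0.382), though with the nuclear copies added the cerebellum was higher by 2.23 percentage points (adjusted p = 0.0054).

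**Figure D1:**
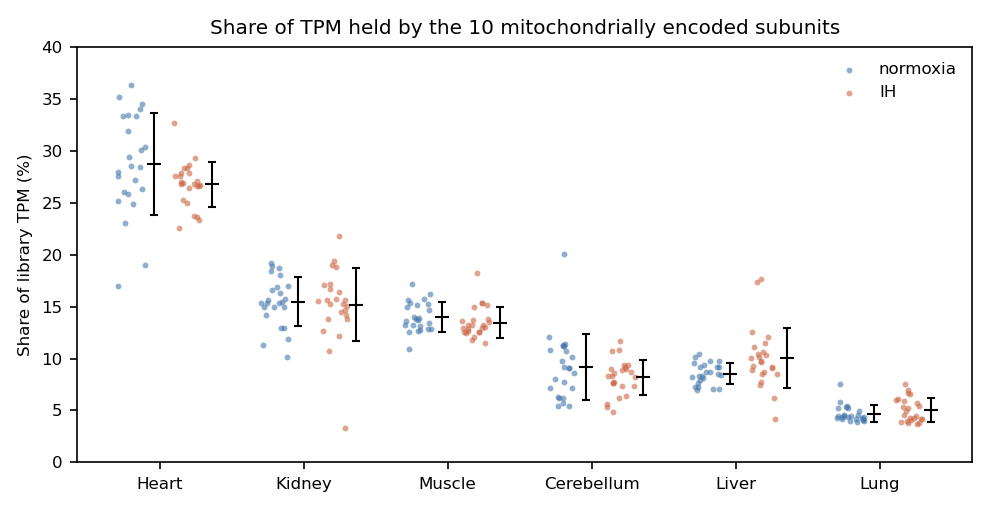
Share of each library's TPM sum held by the 10 mitochondrially encoded subunits (vertical axis, percent) in 6 tissues, in normoxia (blue) and after IH (red). Points are single libraries, 24 per group, and bars give mean and SD. The heart sits highest at means of 28.7% and 26.8%, the lung lowest at 4.68% and 5.08%, and the 2 treatments overlap in every tissue.

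Among the complex IV core, mt-Co1 carries the catalytic heme and copper centres, mt-Co2 receives electrons from cytochrome c, and mt-Co3 is the remaining core subunit. In normoxia, mt-Co2 was the highest of the 10 subunits in heart (59924 ± 10319 TPM), kidney (29381 ± 5369), cerebellum (27614 ± 5285) and muscle (24634 ± 3362). In the lung, mt-Co1 was highest with 8303 ± 947 TPM, and in the liver mt-Atp6, the channel subunit of ATP synthase, with 14971 ± 2065 TPM (SD, n = 24 for each). This order rests on how reads of the copies are treated. With the TPM of the copies added, mt-Co1 was the highest in all 6 tissues, such as 67974 TPM against 59976 for mt-Co2 in the heart, 36859 against 27617 in the cerebellum and 22789 against 15220 for mt-Atp6 in the liver. With the copies weighted by transcript length, mt-Co1 was highest in the lung and liver and mt-Co2 in the other 4. The complex IV subunits together held between 45.04% of the 10 subunits' TPM in the lung and 58.8% in the cerebellum. mt-Nd5, a proton-pumping subunit of complex I, was the lowest in all 12 groups, from 1134 ± 372 TPM in the normoxia cerebellum to 6812 ± 1412 TPM in the IH heart. The 5 complex I subunits among the 10 together held between 22.1% in the cerebellum and 29.5% in the lung. mt-Cytb, which holds the b-type hemes of complex III, ranked between 4th and 7th in every group. In normoxia it stood at 23342 ± 4881 TPM in the heart and 4465 ± 595 TPM in the lung. TPM is per transcript length, so these levels can be set side by side, but reads that also match a nuclear copy can be assigned away from mt-Co1, mt-Co2, mt-Co3, mt-Nd4 or mt-Atp6.

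**Figure D2:**
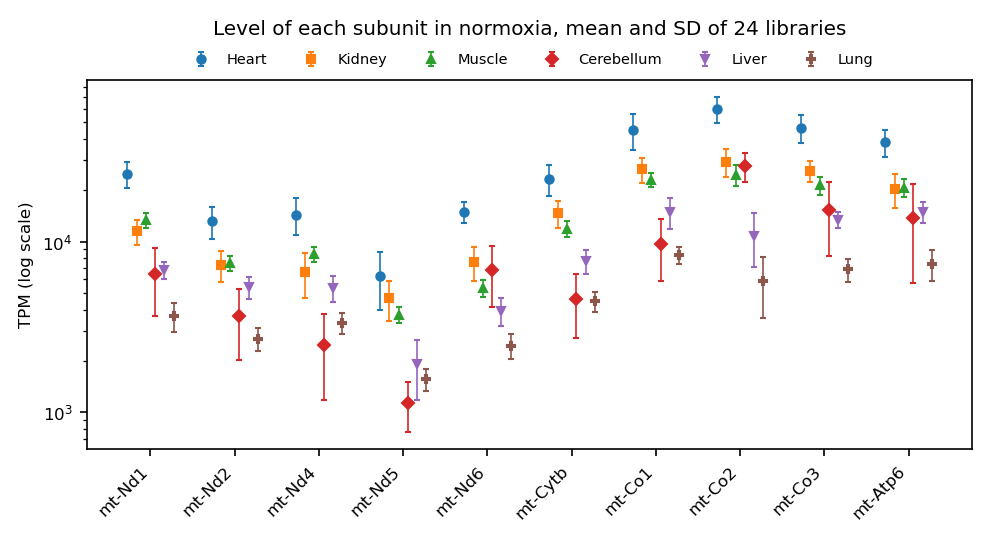
TPM of each of the 10 subunits (log axis) in the 6 tissues in normoxia, as mean and SD of 24 libraries. mt-Nd5 is lowest in every tissue, with 1134 TPM in the cerebellum and 6314 TPM in the heart, and mt-Co2 reaches 59924 TPM in the heart.

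The part of TPM assigned to the nuclear copies was measured in every library. Gm29216 held 27167 ± 13037 TPM in the normoxia cerebellum, above mt-Co1 itself with 9692 ± 3854 TPM, and took 71.1% of the sum of the pair. In the other tissues in normoxia its part was between 22.1% in the muscle and 33.8% in the liver. TPM is per transcript length, and Gm29216 has 492 bases against 1545 for mt-Co1, so its part of the reads is smaller than these values. With Gm29216 weighted by length, the sum of the pair in the normoxia cerebellum was 18344 TPM, against 36859 TPM unweighted. Gm28661 took 28.4% of its sum with mt-Co2 in the normoxia lung and 26.1% in the normoxia liver, but 0.01% in the cerebellum and 0.08% in the heart. Its part varied widely between libraries of 1 group, from 0.32% to 53.6% in the normoxia lung. In 1 normoxia kidney library (replicate 2, 7:30), Gm28661 stood at 25029 TPM and mt-Co2 at 10975 TPM, the lowest mt-Co2 of that group. Summing the pair narrowed the spread of mt-Co2 in several groups. In the normoxia liver, the coefficient of variation fell from 34.8% for mt-Co2 alone to 12.3% for the sum, in the normoxia lung from 38.8% to 17.0%, and in the IH muscle from 32.7% to 8.73%. In the heart in both treatments, the IH kidney and the normoxia cerebellum it hardly moved, such as 17.2% and 17.3% in the normoxia heart. For mt-Co1 the sum had the wider spread in 5 of the 12 groups, among them the IH liver (33.2% alone, 40.04% for the sum) and the normoxia cerebellum (39.8% and 40.2%). Gm28437 took at most 1.20% of its sum with mt-Co3 in any library, although 99.9% of the 31-base stretches of mt-Co3 are shared. Gm28439 took a mean of 23.9% of its sum with mt-Nd4 in the normoxia cerebellum, up to 77.7% in 1 library, and 4.65% in the IH cerebellum. In the IH kidney its mean part was 6.26%, with 65.5% in the highest library.

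In the muscle, mt-Co2 alone passed the test after scaling, and its nuclear copy changed the opposite way. In normoxia, mt-Co2 was 19498 TPM in the lowest library, 23606 at the median and 33221 in the highest. After IH it was 9881, 14507 and 28823 TPM. The groups overlapped, and 19 of the 24 IH libraries lay below the lowest normoxia library. The log2 change was -0.74 ± 0.11 (SE; limma, adjusted p = 3.66e-06), which made it 1 of the 10 subunits called at an adjusted p of at most 0.05 and a 1.5-fold change, where 0.125% of all genes tested were called lower. It was also the only subunit that fell by the adjusted p alone, where 4.89% of all genes fell. Gm28661 was 4.13, 376 and 2714 TPM in normoxia (lowest, median, highest) and 184, 11014 and 13600 TPM after IH, and 21 of 24 IH libraries lay above the highest normoxia library. The log2 change of Gm28661 was 4.52 ± 0.53 (adjusted p = 1.31e-08). The sum of mt-Co2 and Gm28661 had a mean of 25250 ± 3214 TPM in normoxia and 26184 ± 2285 TPM after IH (SD, n = 24), a log2 change of -0.04 ± 0.07 (adjusted p = 0.806), so the call was lost when the pair was summed. By replicate number, mt-Co2 fell by 1779 TPM in replicate 1, fell by 8358 TPM in replicate 2 and fell by 14875 TPM in replicate 3 (n = 8 each). Without replicate 3 the change was -0.49 on the log2 scale, under 1.5-fold. The other 9 subunits lay between -0.11 and 0.04 on the log2 scale, and none passed the adjusted p. In TPM as deposited mt-Nd5 also passed (0.14 ± 0.05, adjusted p = 0.0323).

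**Figure D3:**
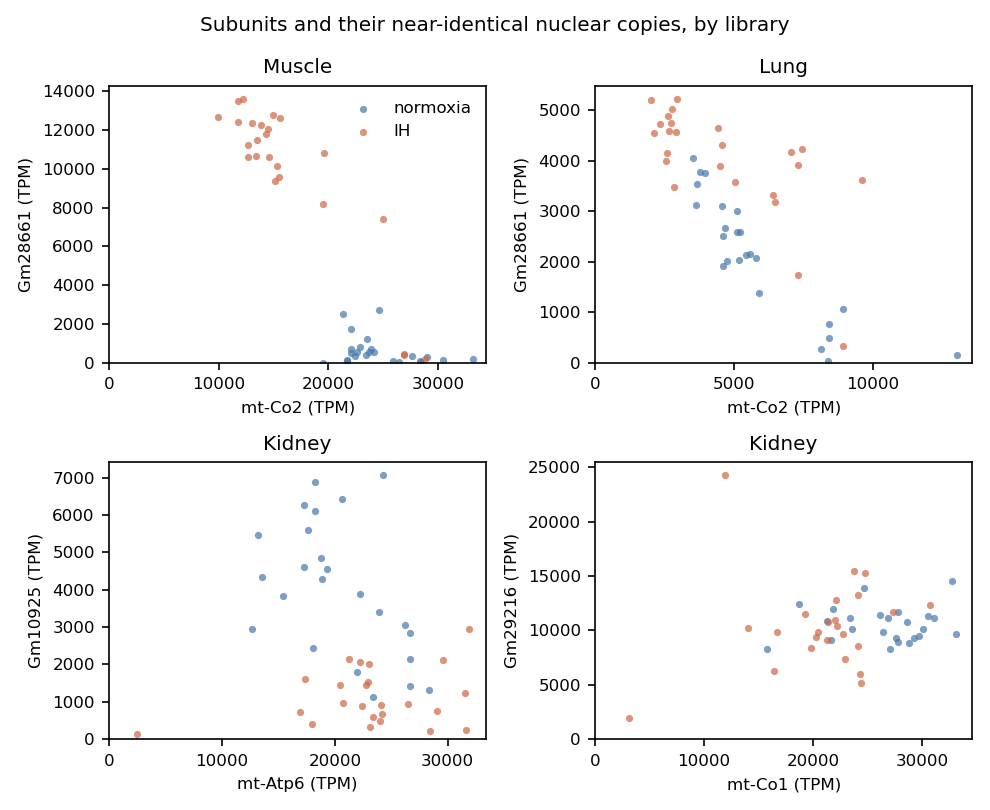
Each point is 1 library, with a subunit on the horizontal axis and its near-identical nuclear copy on the vertical axis (both in TPM), in normoxia (blue) and IH (red), for mt-Co2 in muscle and lung and for mt-Atp6 and mt-Co1 in kidney. In the muscle, 21 of 24 IH libraries lie above the highest Gm28661 value of normoxia (2714 TPM) and 19 lie below its lowest mt-Co2 value (19498 TPM), and in the kidney Gm10925 has a median of 4089 TPM in normoxia and 931 TPM after IH.

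In the lung, mt-Co2 also fell and Gm28661 rose on average, though both rose in replicate 1. The direction of most other subunits depended on the scaling of the libraries. mt-Co2 was 3510, 5143 and 13026 TPM in normoxia and 2015, 3686 and 9617 TPM after IH (lowest, median, highest). The groups overlapped, with 12 of 24 IH libraries below the lowest normoxia library. The log2 change after scaling was -0.75 ± 0.18 (SE; limma, adjusted p = 2.73e-04), the only one of the 10 called at 1.5-fold, where 4.39% of all 15426 genes tested were called lower. Gm28661 had a mean of 2132 TPM in normoxia and 4004 TPM after IH, a log2 change of 1.00 ± 0.37 (adjusted p = 0.0151). For the sum of both, the log2 change was -0.21 ± 0.09 (adjusted p = 0.0259). The change of mt-Co2 was not alike across replicate numbers. Its mean rose by 1726 TPM in replicate 1 and fell by 998 TPM in replicate 2 and fell by 4512 TPM in replicate 3. Gm28661 rose by 740, 1466 and 3409 TPM in replicates 1, 2 and 3. Without replicate 3 the log2 change of mt-Co2 was -0.22 (adjusted p = 0.318).

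By the adjusted p alone, 4 of the 10 subunits were lower in the IH lung, where 41.5% of all genes were lower, and none was higher, where 28.9% of all genes were higher. Beside mt-Co2 these were mt-Atp6 (-0.32 ± 0.09), mt-Nd1 (-0.32 ± 0.08) and mt-Nd2 (-0.22 ± 0.07), all as log2 changes after scaling. The count was 8 without replicate 1, where 9459 of 15382 genes passed in either direction. It was 0 without replicate 3, where 10922 of 15590 genes passed. It was 9 with a term for genes detected (all lower), where 8102 of 15426 genes passed. Summed with copies it was 5, where 10861 of 15421 genes passed, and mt-Nd4 passed too (-0.14, adjusted p = 0.0429). Genes detected rose from 22694 to 25455 with IH in the lung, so that term and the treatment overlap and the fit cannot tell them apart. The scaling moved the median over all genes in the lung from 0.21 in TPM as deposited to -0.08. In TPM as deposited, mt-Nd2 turned to 0.08, mt-Nd1 and mt-Atp6 were near 0 (-0.01 and -0.02), and mt-Nd5 (0.36), mt-Co1 (0.35), mt-Cytb (0.23), mt-Nd6 (0.21) and mt-Nd4 (0.17) were higher with adjusted p between 3.81e-07 and 0.013. Both settings had mt-Co2 lower (-0.44 as deposited, adjusted p = 0.0234). mt-Nd5 was 1146, 1551 and 2052 TPM in normoxia and 1485, 1985 and 2505 TPM after IH, with 23 of 24 IH libraries above the normoxia median. mt-Co1 was 7006, 8109 and 11709 TPM in normoxia and 7511, 9705 and 15057 TPM after IH, with 22 of 24 above the normoxia median. Both groups overlapped in each of these subunits.

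A ratio within a library does not depend on its scaling. The summed TPM of the 10 subunits was divided by that of 75 nuclear subunits of complexes I, III, IV and V. In the lung, the log2 ratio was 1.35, 1.66 and 2.27 in normoxia and 1.64, 1.78 and 2.43 after IH (lowest, median, highest), and 23 of 24 IH libraries lay above the normoxia median. The mean rose from 1.68 ± 0.18 to 1.85 ± 0.18 (SD, n = 24), a difference of 0.17 ± 0.05 (SE; permutation test within time points, adjusted p = 0.00516 over 6 tissues). It was higher after IH in all 8 time points, and by 0.30, 0.17 and 0.04 in replicates 1, 2 and 3. Without replicate 1 the difference was 0.11 (adjusted p = 0.147), and without the IH library of few lung markers it was 0.15 (adjusted p = 0.0135). With the nuclear copies added, it was 0.20 (adjusted p = 3.6e-04), and for the 5 subunits that have no near-identical copy it was 0.23 ± 0.05, from 0.03 to 0.26 (adjusted p = 6e-05). The number of genes detected also rose in the lung. The median of the summed heart markers was 414 TPM in normoxia and 765 TPM after IH, that of atrial markers 273 and 437, of red blood cell markers 63132 and 46657, and of endothelial markers 1444 and 1175. The part of any of these in this result was not tested.

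After scaling, 68 of the 75 nuclear subunits were lower in the IH lung by the adjusted p and none was higher, with a median log2 change of -0.38 against -0.08 for all genes and -0.18 for the 10 mitochondrially encoded subunits. In TPM as deposited, the 75 together held 1.44% ± 0.10 in normoxia and 1.39% ± 0.19 after IH (permutation test within time points, adjusted p = 0.252), so a fall of their sum was not detectable. This test is of the sum and not of each gene, so it cannot be set directly against the count of 68. The 2 nuclear genes with the largest falls were Ndufa11, an accessory subunit of complex I (132 to 107 TPM, log2 change after scaling -0.62 ± 0.07), and Cox5a, a subunit of complex IV (150 to 122 TPM, -0.62 ± 0.08). Of 33 genes of mitochondrial DNA expression, such as the polymerase, its factors and RNA-processing enzymes, 7 were higher and 12 lower by the adjusted p, and 0 were called at 1.5-fold.

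**Figure D4:**
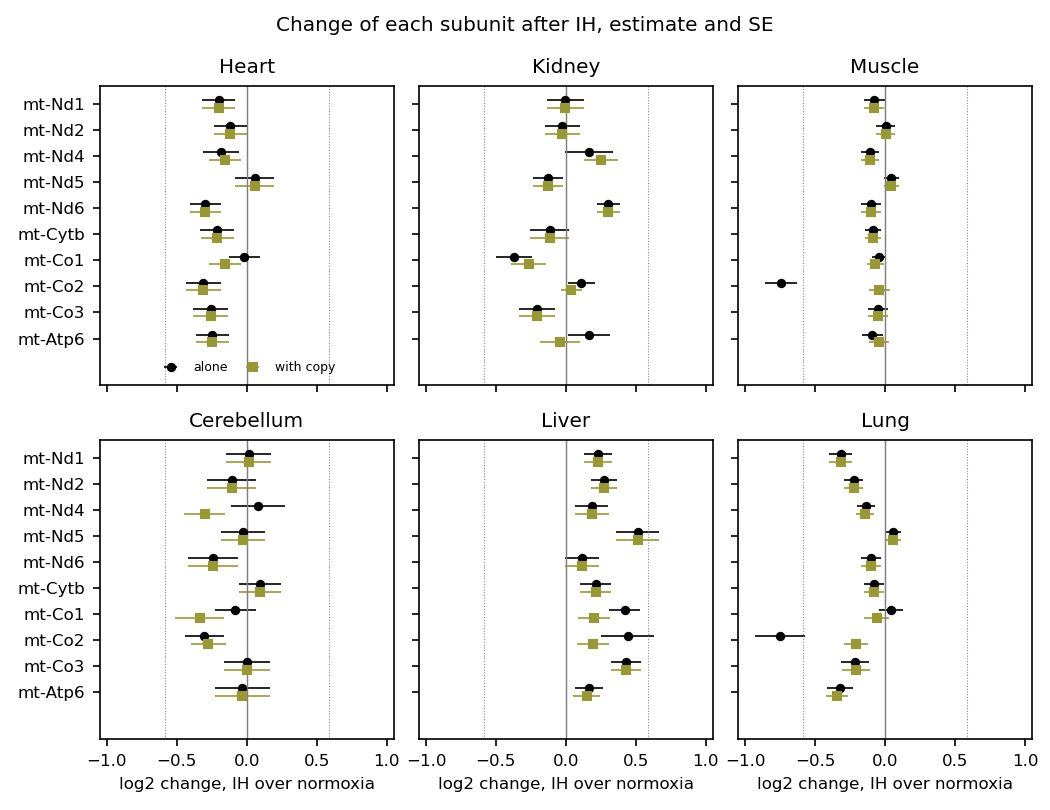
Log2 change of each subunit after IH (horizontal axis, limma after scaling, with SE) in the 6 tissues, alone (black) and summed with its near-identical nuclear copy (olive). Dotted lines mark a 1.5-fold change. mt-Co2 alone lies at -0.74 in the muscle and -0.75 in the lung, and its sum with Gm28661 at -0.04 and -0.21.

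In the liver, 4 of the 10 subunits were higher after IH by the adjusted p, and their summed share varied more between libraries. The share of TPM was 7.01%, 8.47% and 10.4% in normoxia and 4.20%, 9.73% and 17.6% after IH (lowest, median, highest). The IH libraries spanned the whole normoxia range, with 8 of 24 above it and 2 below it. The mean rose from 8.55% ± 1.00 to 10.0% ± 2.92 (SD, n = 24), a difference of 1.49 ± 0.63 percentage points (SE; permutation test within time points, adjusted p = 0.0445 over 6 tissues). This call did not hold when any replicate number was left out (adjusted p of 0.0566, 0.0576 and 0.193 without replicates 1, 2 and 3), nor with the copies added (1.16 percentage points, adjusted p = 0.12), nor with a replicate block (adjusted p = 0.124). The log2 ratio to the nuclear subunits was 1.73 ± 0.22 in normoxia and 1.80 ± 0.57 after IH (adjusted p = 0.722). For the 5 subunits with no near-identical copy it differed by -0.0068 ± 0.14 (adjusted p = 0.964).

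None of the 10 subunits was called at 1.5-fold in the liver, where 3.66% of all genes were called. By the adjusted p alone 4 were higher, where 10.9% of all genes were higher. These were mt-Nd5 (0.51 ± 0.15, log2 change after scaling), mt-Co3 (0.43 ± 0.11), mt-Co1 (0.42 ± 0.11) and mt-Nd2 (0.27 ± 0.09), with adjusted p between 0.00301 and 0.0304. mt-Co3 was 11244, 13261 and 16839 TPM in normoxia and 11513, 15548 and 32722 TPM after IH, higher on average at all 8 time points. mt-Nd5 was 901, 1711 and 3080 TPM in normoxia and 604, 2685 and 5242 TPM after IH. Both groups overlapped, with 9 of 24 IH libraries above the normoxia range in each of the 2 subunits. The count was 0 without replicate 1, where 110 of 11438 genes passed, and 1 without replicate 2, where 239 of 11315 passed, against 2748 of 11334 in all. Summed with Gm29216, mt-Co1 did not pass (0.20 ± 0.11, adjusted p = 0.194), though it did with the copy weighted by length (0.34 ± 0.10, adjusted p = 0.00869), and mt-Co3 alone passed in TPM as deposited. Markers of other tissues moved with the treatment in the liver. The 10 kidney markers summed to 0.806, 4.11 and 119 TPM in normoxia and 41.1, 87.0 and 434 TPM after IH, and the 10 heart markers to 6.81, 20.8 and 97.5 TPM in normoxia and 41.3, 59.6 and 10726 TPM after IH (lowest, median, highest). Without the IH library of replicate 2 at 13:30, the share differed by 1.56 percentage points (adjusted p = 0.0337). The part of these other transcripts in the remaining difference was not tested.

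Among the 74 nuclear subunits tested, 20 were higher and 1 lower in the IH liver by the adjusted p, and 3 were called higher. The largest rises were Cox8b (log2 change 1.37 ± 0.36) and Cox6a2 (1.18 ± 0.36), which are the heart and muscle forms of 2 complex IV subunits and moved beside the heart markers above. Their IH means of 47.1 and 29.4 TPM were carried by the library with 10726 TPM of heart markers, in which they stood at 986 and 619 TPM. Without it, the means went from 3.65 to 6.31 TPM (1.03 ± 0.17, adjusted p = 1.61e-05) for Cox8b and from 2.37 to 3.73 TPM (0.85 ± 0.16, adjusted p = 6e-05) for Cox6a2, and 2 of the 3 stayed past 1.5-fold. Of the genes of mitochondrial DNA expression, Polrmt (11.01 to 6.73 TPM, -0.63 ± 0.12) and Lrpprc, which stabilises mitochondrial mRNAs (27.0 to 18.6 TPM, -0.61 ± 0.15), were the 2 called lower.

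In the kidney, mt-Co1 fell and mt-Nd6 rose by the adjusted p alone, and none of the 10 was called at 1.5-fold, where 0.783% of all genes were called. mt-Co1 was 15775, 27343 and 33115 TPM in normoxia and 3047, 22041 and 30764 TPM after IH (log2 change -0.37 ± 0.13, adjusted p = 0.0321; 11.5% of all genes were lower). mt-Nd6, the only one of the 10 read from the opposite strand, was 5221, 7493 and 11570 TPM in normoxia and 4759, 8900 and 12668 TPM after IH (0.30 ± 0.08, adjusted p = 0.00799; 8.25% of all genes were higher). The groups overlapped in both, with 2 of 24 IH libraries above the normoxia median of mt-Co1 and 21 of 24 above that of mt-Nd6. Summed with Gm29216, mt-Co1 did not pass (-0.27 ± 0.12, adjusted p = 0.125), and in TPM as deposited neither subunit passed (adjusted p = 0.0504 for mt-Co1 and 0.0627 for mt-Nd6).

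mt-Atp6 in the kidney rose from a mean of 20388 to 23239 TPM without passing the test (log2 change 0.16 ± 0.15, adjusted p = 0.472), and Gm10925 fell from 4031 to 1117 TPM (-2.01 ± 0.28, adjusted p = 8.35e-07). Their sum was 24419 ± 4079 TPM in normoxia and 24356 ± 6438 TPM after IH. The share of all 10 subunits was 15.5% ± 2.38 in normoxia and 15.2% ± 3.51 after IH (adjusted p = 0.742). The lowest library of the whole kidney set was 1 IH library (replicate 3, 19:30), in which the subunits held 3.30% of TPM, mt-Atp6 stood at 2435 TPM and the log2 ratio to the nuclear subunits at -1.24. Without it, 4 of the 10 subunits passed the adjusted p, where 2370 of all 12904 genes passed in either direction. The share then differed by 0.210 percentage points (adjusted p = 0.75). In the kidney 9 of the 75 nuclear subunits were higher and 2 lower by the adjusted p, and none was called at 1.5-fold.

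In the heart, no subunit was called at 1.5-fold, where 2.95% of all genes were called, and 2 were lower by the adjusted p alone, where 17.3% of all genes were lower. mt-Co2 was 34875, 57904 and 77433 TPM in normoxia and 45523, 50875 and 63990 TPM after IH (log2 change -0.31 ± 0.12, adjusted p = 0.0373). mt-Nd6 was 8240, 15177 and 18666 TPM in normoxia and 11550, 12670 and 16438 TPM after IH (-0.30 ± 0.11, adjusted p = 0.0264). The IH libraries lay within the normoxia range in both, with 3 of 24 above the normoxia median. Neither passed once a term for detected genes was added (adjusted p = 0.553 and 0.375), where 257 of all 12779 genes passed against 5780 without the term. Genes detected fell from 25124 to 21447 with IH in the heart, so the term and the treatment overlap and this fit cannot tell them apart. Neither subunit passed without replicate 1 or without replicate 2. Without the normoxia library of few heart markers, which held the lowest value of both, 6 subunits were lower by the adjusted p. They were mt-Nd1, mt-Nd6, mt-Co2, mt-Co3, mt-Atp6 and mt-Cytb, from -0.37 to -0.26. In that setting 6101 of all 12674 genes passed in either direction. The share then differed by -2.44 percentage points (adjusted p = 0.0679). The share was 28.7% ± 4.93 in normoxia and 26.8% ± 2.17 after IH (adjusted p = 0.223), and the log2 ratio to the nuclear subunits 1.84 ± 0.36 and 1.84 ± 0.22 (adjusted p = 0.993). Of the nuclear subunits, 26 were lower and 5 higher by the adjusted p.

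In the cerebellum, no subunit passed the adjusted p, with or without the fold threshold, where 9.76% of all genes were higher and 5.24% lower by the adjusted p and 2.64% were called at 1.5-fold. The change nearest to passing was that of mt-Co2, which was 20277, 26618 and 42873 TPM in normoxia and 9342, 23470 and 31110 TPM after IH (log2 change -0.30 ± 0.14, unadjusted p = 0.035, limma adjusted p = 0.134). It was the only one of the 10 with an unadjusted p under 0.05, and the share of all genes at that threshold was not counted. The groups overlapped, and 8 of 24 IH libraries lay below the normoxia range. The share was 9.17% ± 3.16 in normoxia and 8.19% ± 1.71 after IH (adjusted p = 0.223). The heart markers in these libraries had a median sum of 1338 TPM in normoxia and 787 TPM after IH. The part of heart transcripts in the cerebellum values was not tested. In 1 normoxia library (replicate 2, 13:30) the subunits held 20.1% of TPM. Without the IH library of few cerebellum markers, the count stayed at 0, the genes past the adjusted p rose from 2234 to 3629 and those called from 393 to 776, and the share differed by -1.003 percentage points (adjusted p = 0.218). Without replicate 2, 48 genes passed. Without the normoxia library of many skeletal muscle markers, the count was 0 and the share differed by -1.14 percentage points (adjusted p = 0.215). Among nuclear genes, Fastk, of a family that acts on mitochondrial RNA (52.3 to 106 TPM, 1.07 ± 0.16), and Ndufb2, an accessory subunit of complex I (330 to 608 TPM, 0.96 ± 0.16), were called higher.

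The makeup of the pool of the 10 subunits was then compared, as each subunit's percentage of their summed TPM, in 60 tests adjusted together (permutation test within time points). In the muscle 9 of the 10 percentages changed. mt-Co2 fell from 17.6% ± 0.96 to 11.9% ± 2.77 (adjusted p = 7.5e-05), and the other 8 rose, such as mt-Co1 from 16.51% to 17.9% and mt-Nd2 from 5.32% to 5.96%. Because percentages sum to a fixed total, a fall of 1 raises the rest, and 3 of 10 passed when each subunit was summed with its copy. In the lung 7 changed, with mt-Co1 up from 17.99% ± 1.31 to 21.3% ± 1.03 and mt-Co2 down from 12.2% ± 2.62 to 8.58% ± 2.66. Among the subunits with no near-identical copy, mt-Nd5 rose there from 3.402% ± 0.54 to 4.07% ± 0.61 and mt-Nd1 fell from 7.83% ± 0.30 to 7.23% ± 0.40. Without replicate 3, the difference of mt-Nd5 was 0.117 percentage points (adjusted p = 0.576) and that of mt-Co2 -1.45 (adjusted p = 0.199), against 1.13 and -5.48 without replicate 1. In the kidney 5 changed, with mt-Co1 down from 17.1% ± 1.25 to 13.6% ± 1.75 and mt-Nd6 up from 4.89% ± 0.57 to 6.29% ± 1.88 (adjusted p = 7.5e-05 for both). In the liver 4 fell, of which mt-Atp6 moved from 17.5% ± 0.63 to 15.8% ± 1.13. In the heart 3 changed, with mt-Co1 up from 15.7% ± 2.22 to 17.8% ± 1.66, and in the cerebellum 3 rose (mt-Nd1, mt-Co3 and mt-Cytb), of which mt-Nd1 missed the threshold without the normoxia library of many skeletal muscle markers (adjusted p = 0.0595).

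Whether the effect of IH differed between tissues was tested as an interaction over the libraries of all tissues. It passed for 7 of the 10 subunits, where 88.3% of all genes passed, so the count of subunits lay below the background. The adjusted p was 8.91e-09 for mt-Co2 and 7.74e-05 for mt-Co1, and mt-Nd2, mt-Nd4 and mt-Cytb did not pass (0.0612, 0.198 and 0.0981). For the log2 share of the 10 together, the difference between tissues did not pass (permutation p = 0.0684), nor for the log2 ratio to the nuclear subunits (p = 0.185).

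The 24-hour design also asks whether the transcripts cycle. A cosine curve with a period of 24 hours passed the adjusted p for 2 of the 10 subunits in the normoxia liver, where 16.0% of all genes passed. mt-Cytb had its lowest mean at 10:30, with 6377 ± 391 TPM, and its highest at 16:30, with 8952 ± 962 TPM (SD, n = 3). The fitted curve had a peak-to-trough fold of 1.37, a peak at 20.3 h and an adjusted p of 0.0265 (limma). mt-Nd4 had a fold of 1.35, a peak at 19.8 h and an adjusted p of 0.0428. None of the 74 nuclear subunits tested was rhythmic there. The count of the 10 was 0 with time as a factor, with TPM on the linear scale, without replicate 1 and without replicate 2, and 4 without replicate 3.

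No subunit passed in any of the other 11 groups, with 0 of 10 in each. The background was 8.33% of all genes in the normoxia lung and 3.1% in the IH lung, 2.23% in the IH liver, 18.7% and 5.15% in the kidney in normoxia and IH, 5.51% and 7.6% in the muscle, 0.535% and 3.62% in the heart, and 0.00482% and 0.0108% in the cerebellum. In the kidney in normoxia, 26 of the 75 nuclear subunits were rhythmic against 0 of the 10 mitochondrially encoded subunits. An unadjusted p under 0.05 was reached by mt-Nd1, mt-Nd5 and mt-Nd6 in the normoxia lung. In the normoxia liver it was reached by mt-Atp6 and mt-Co3 beside the 2 above. So it was by mt-Atp6, mt-Nd2 and mt-Nd6 in the normoxia cerebellum, and by mt-Nd5 in the IH heart and IH cerebellum. Their adjusted p lay between 0.0742 and 0.977, apart from the 2 in the liver that passed. The share of all genes at the unadjusted threshold was not counted, so this list has no background beside it. The log2 ratio to the nuclear subunits was rhythmic in 0 of 12 groups (adjusted p from 0.256 to 0.436).

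**Figure D5:**
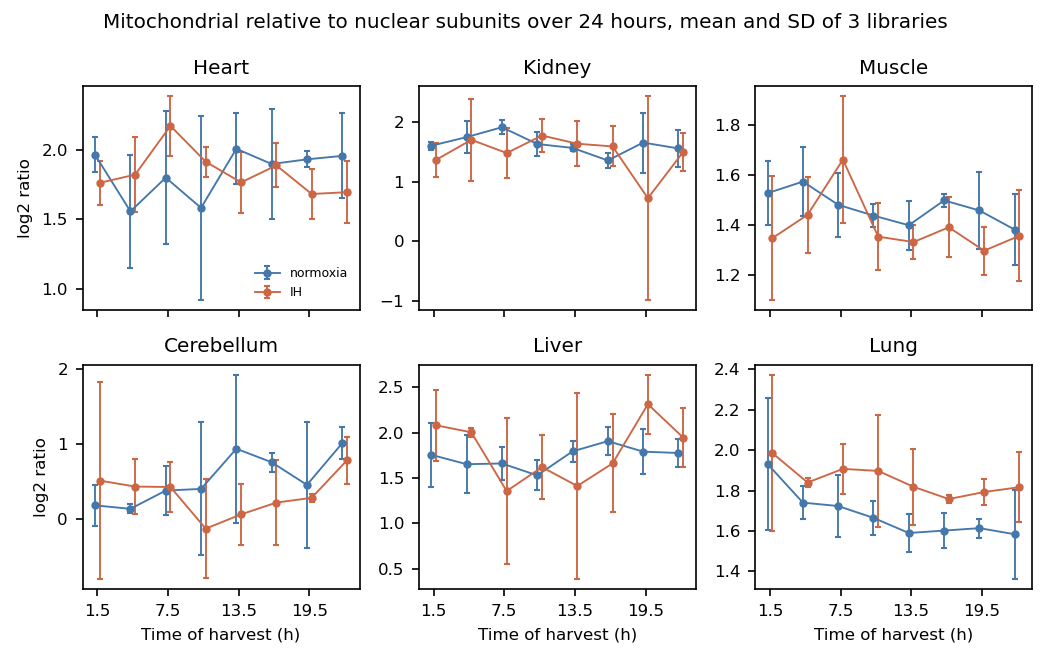
Log2 ratio of the 10 mitochondrially encoded subunits to 75 nuclear subunits (vertical axis) by hour of harvest, as mean and SD of 3 libraries per time point, in normoxia (blue) and IH (red). In the lung the IH mean lies above the normoxia mean at all 8 time points, and the widest bar in the IH kidney, at 19:30, holds the library at -1.24.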

How the data were processed

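RNA was sequenced from 288 libraries, each from 1 mouse, as poly(A)-selected, directional libraries. The authors quantified reads with kallisto against the mouse transcriptome of Ensembl release 102 (build mm10, per the submitters' processing notes, which also name bcl2fastq, FastQC 0.11.3 and DESeq2) and deposited TPM summed to 35904 genes. Pseudoalignment splits reads that match several transcripts by estimation, so a subunit and its nuclear copy share reads. Strand settings are not given in the sources used here. The authors tested estimated counts with DESeq2. The deposited TPM hold no counts, so DESeq2 was not run and depth and its precision are unknown.

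TPM were scaled per tissue by the median of ratios, and 0.5 was added before taking log2. Treatment alone was tested with limma 3.58.1 (R 4.3.3, intensity trend) over all genes whose mean reached 1 TPM, with Benjamini-Hochberg adjustment, and genes were called at an adjusted p of 0.05 and 1.5-fold. Rhythm used a cosine fit over genes whose maximum reached 1 TPM. Shares, ratios and percentages were tested by 100000 2-sided permutations of treatment within time points. P-values set a difference or a fitted curve against the spread between these libraries, which were taken as independent. Positions, lengths and copies came from GENCODE mouse release 21, with BLAST 2.17.0 (near-identical from 99% identity) and shared stretches of 31 bases. Python 3.11.15, numpy 2.4.6, pandas 2.3.3, scipy 1.17.1 and matplotlib 3.10.9 were used, and the fits were tested on simulated data.

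The subunits and lists were chosen with earlier results of these data known. Named besides the 10 are their copies and, by tissue, up to 2 called genes in either direction with the greatest change among nuclear subunits and genes of mitochondrial DNA expression whose mean reached 5 TPM, and the 5 genes most like the 10 over group means. Gm11410 is shown as the closest relative of a subunit with no near-identical copy. Deviations of same-numbered libraries had a correlation over 0.1 in 6 of 24 pairs in the lung and kidney, 16 in the liver, 12 in the muscle and 8 in the heart and cerebellum. The median correlation was 0.218 in the liver and 0.105 in the muscle, and below 0 in the other tissues. Numbers were not taken as pairs in any tissue, though in the liver the check does not exclude that they share structure. Alternatives were TPM as deposited, other pseudocounts and filters, terms for time point, replicate block and genes detected, medians, sums with copies, other rhythm tests, and leaving out replicates or libraries.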

Additional observations from a re-analysis of the deposited data

Results flagged for a closer look

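The effect of IH on 7 subunits differed between tissues, tested as treatment by tissue terms over the libraries of all tissues with limma (adjusted p). It was 8.91e-09 for mt-Co2, with log2 changes from -0.75 in the lung and -0.74 in the muscle to 0.44 in the liver, and 7.74e-05 for mt-Co1, from -0.37 in the kidney to 0.42 in the liver. For mt-Co3 it was 0.000546, with 0.43 in the liver and -0.26 in the heart. It was 0.00195 for mt-Nd6, with 0.30 in the kidney and -0.30 in the heart, and 0.00732 for mt-Nd5, with 0.51 in the liver and -0.13 in the kidney. For mt-Nd1 it was 0.0199, with 0.23 in the liver and -0.32 in the lung, and for mt-Atp6 0.0346, with 0.17 in the liver and -0.32 in the lung. Across all genes 88.3% passed the same test. With each subunit summed with its nuclear copies, 7 of 10 passed as well, and 5 of 10 passed in TPM as deposited. Libraries of several tissues may share mice, which the fit takes as independent.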

How the results depend on the processing

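Subunits called at 1.5-fold in the lung numbered 1, against 0 in TPM as deposited, 4 with a term for genes detected, 0 summed with copies (also when weighted by length) and 0 to 1 without a replicate (0 without replicate 3). In the muscle the 1 call became 0 summed with copies, either way, and 0 to 1 without a replicate (0 without replicate 3), and in the liver the count was 0 to 1 without a replicate. By the adjusted p alone, the lung count of 4 was 6 as deposited (5 of them higher), 9 with genes detected, 5 summed with copies, either way, and 0 to 8 without a replicate. The liver count of 4 was 1 as deposited, 1 with no filter, 3 summed with copies (4 by length) and 0 to 3 without a replicate. The kidney count of 2 was 0 as deposited, 1 with no filter, 1 with genes detected, 1 summed with copies, either way, 4 without the IH library of replicate 3 at 19:30, and 1 to 2 without a replicate (1 without replicate 1 or 2). The muscle count of 1 was 2 as deposited, 0 summed with copies, either way, and 1 to 2 without a replicate. The heart count of 2 was 0 with no filter, 1 with time point as a term, 0 with genes detected, 6 without the normoxia library of replicate 3 at 7:30 and 0 to 1 without a replicate. The cerebellum count of 0 was 1 as deposited and 0 to 1 without a replicate. The number of all genes past the adjusted p, in either direction, moved with the setting too. In the lung it was 10864 of 15426, against 10133 as deposited and 8102 with genes detected. In the liver it was 2748 of 11334, against 2467 as deposited. In the kidney it was 2552 of 12902, against 1009 as deposited. In the heart it was 5780 of 12779, against 257 with genes detected. The liver share difference, 1.49 percentage points, missed the threshold with a replicate block (1.49), summed with copies (1.16, or 1.28 by length) and without any 1 replicate (0.929 to 2.03). The heart share passed as a difference of medians (-1.63), as did the muscle log2 ratio (-0.13). The lung log2 ratio ranged from 0.11 to 0.24 without a replicate. The cause of these changes was not tested.

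Percentages of the pool past the adjusted p numbered 3 in the muscle summed with copies, either way, against 9, and 6 in the heart with a replicate block, against 3. Without a replicate they numbered 3 to 8 in the lung, 2 to 6 in the liver, 3 to 5 in the kidney, 1 to 4 in the heart and 0 to 6 in the cerebellum. Summed with copies, and by length, the muscle differences reversed for mt-Nd1 (-0.13 and -0.15 percentage points), mt-Nd4 (-0.20 and -0.22), mt-Co1 (-0.18 and -0.0088), mt-Co2 (0.20 and 0.14) and mt-Cytb (-0.16 and -0.18). The lung log2 change of mt-Nd2 reversed to 0.081 as deposited. Rhythmic subunits numbered 1 in the normoxia lung as deposited and 1 with a replicate block. In the normoxia liver, 2 became 1 by a rank test, 0 with time as a factor, 0 on the linear scale, 4 with a replicate block and 0 to 4 without a replicate. With the replicate block, the percentages of mt-Nd4 in the kidney and mt-Nd1 in the cerebellum also missed the threshold (adjusted p = 0.0671 and 0.0641), and it changed no other call, though the numbers were not shown to pair the libraries. Of 181 alternatives for the log2 change of a subunit past the adjusted p, 139 kept direction and side of the threshold and 41 lost the call, and of 242 for a percentage of the pool 182 kept both and 50 lost the call. Sums by length, the 5 subunits with no near-identical copy, and leaving out the kidney, lung and normoxia libraries were chosen after seeing the data. With no counts, depth could not be weighed.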

Other observations

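Over the 12 group means of tissue and treatment, the genes whose log2 level was most like that of the 10 subunits' summed TPM, among 5468 genes searched, were Atp5c1 and Atp5g1, which encode subunits of ATP synthase (Pearson's r of 0.947 and 0.938), Oxld1 (0.944), Ndufa1, a subunit of complex I (0.935), and Ppif, which encodes cyclophilin D of the mitochondrial matrix (0.931). The 12 points share tissues in pairs, so these values describe the order of the tissues. In normoxia, Atp5g1 had a mean of 2603 TPM in the heart and 124 TPM in the lung.

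The log2 share of TPM held by the subunits, added after seeing the data, followed a 24-hour cosine in the liver in both treatments. In normoxia the amplitude was 0.17, the peak 20.2 h and the adjusted p 0.009 over 12 groups (permutation of library times), with a lowest mean of 7.41% at 10:30 and a highest of 9.50% at 22:30. After IH the amplitude was 0.34, the peak 23.4 h and the adjusted p 0.0363, with 7.47% at 13:30 and 13.4% at 19:30. The 13:30 mean holds the lowest IH liver library (4.20%, replicate 1). It also holds the library with 10726 TPM of heart markers (8.47%, replicate 2). The fit was not repeated without these libraries. In the IH liver, 0 of the 10 subunits passed alone. The log2 ratio to the nuclear subunits passed in neither treatment (adjusted p = 0.267 in normoxia and 0.256 after IH). The difference between the treatments in amplitude was not tested. The other 10 groups had adjusted p from 0.0744 to 0.761.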
